A study of Rattus norvegicus with 10 samples.

Results

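Long blocks of methylated DNA were described in the hippocampus of rats 3 months after traumatic brain injury (TBI) or a sham operation. A block was any captured region on chromosomes 1 to 20 whose deposited end lay at least 3000 bp beyond its start. This rule found 3552 blocks among 716492 regions, or 0.501% of the 709429 regions on these chromosomes. Length alone chose the blocks, and the number of tags in them was not used. A region is a union of calls between pairs of these same libraries, so its length is itself a product of the data.

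The rats were adult male Sprague-Dawley animals, an outbred laboratory strain, of 330 to 371 g at surgery. All were anesthetized and had a left parietal craniectomy of 5 mm. The 5 TBI rats then received lateral fluid percussion, a pressure pulse to the intact dura, with a mean impact of 3.32 atm. The 5 sham rats did not. The injured rats were not monitored by EEG, so that no rat is known here to have had or not had epilepsy. Each library came from 1 rat and from dorsal hippocampal tissue that held the CA3 field, a layer of pyramidal neurons, and the dentate gyrus, a layer of granule neurons. Tissue identity was not checked here, since captured DNA measures no transcripts.

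In mammalian brain most CpG sites outside CpG islands carry a methyl group on cytosine. Capture with a methyl-binding protein (Methyl-Seq) enriches DNA fragments that hold several methylated CpG sites, so tag numbers depend on CpG density as well as on methylation. A long region is a stretch over which calls between pairs of libraries joined up, so it need not hold many tags in every rat. In bulk tissue, fewer cells with methylated DNA and less methylation per cell cannot be told apart.

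Libraries held 13597924 to 21672940 tags, and the sham library of rat 5 stood apart from the other 9. It lacked tags in 0.487% of all regions, against 6.57% to 16.3% in the others. The main comparisons of TBI with sham rats below are therefore given with and without sham rat 5. Other summaries use all 10 rats unless stated.

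The blocks together covered 13.8 Mb, which was 2.74% of the length of all autosomal regions. Their lengths ran from 3000 to 17956 bp, with a median of 3538 bp, compared with 575 bp for all autosomal regions. Of the blocks, 2533 (71.3%) were shorter than 4000 bp and 648 (18.2%) measured 4000 to under 5000 bp. A further 356 measured 5000 to under 10000 bp, and 15 were longer still. Most blocks were deeply covered. The median block held 2405 tags over all rats, and 99.6% of the blocks had at least 10 tags in every rat, against 69.0% of the regions that entered the test.

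Blocks carried more tags per kb than shorter regions. CPM are tag counts scaled for sequencing depth and corrected for composition by the trimmed mean method, here divided by length. The median block held 3.65 CPM per kb, which was 2.93 times the autosomal median of 1.24 CPM per kb. The level climbed with length, from 0.799 CPM per kb in regions under 500 bp to 1.33 from 500 bp, 2.20 from 1000 bp and 3.00 from 2000 bp up to the length limit. Within the blocks it went on to 3.50 CPM per kb below 4000 bp, 3.83 at 4000 to under 5000 bp and 4.37 at 5000 bp or more. There was no step at the length limit. The 210 blocks of 3000 to 3049 bp had a median of 3.12 CPM per kb and the 270 regions of 2950 to 2999 bp had a median of 3.40 CPM per kb.

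**Figure D1:**
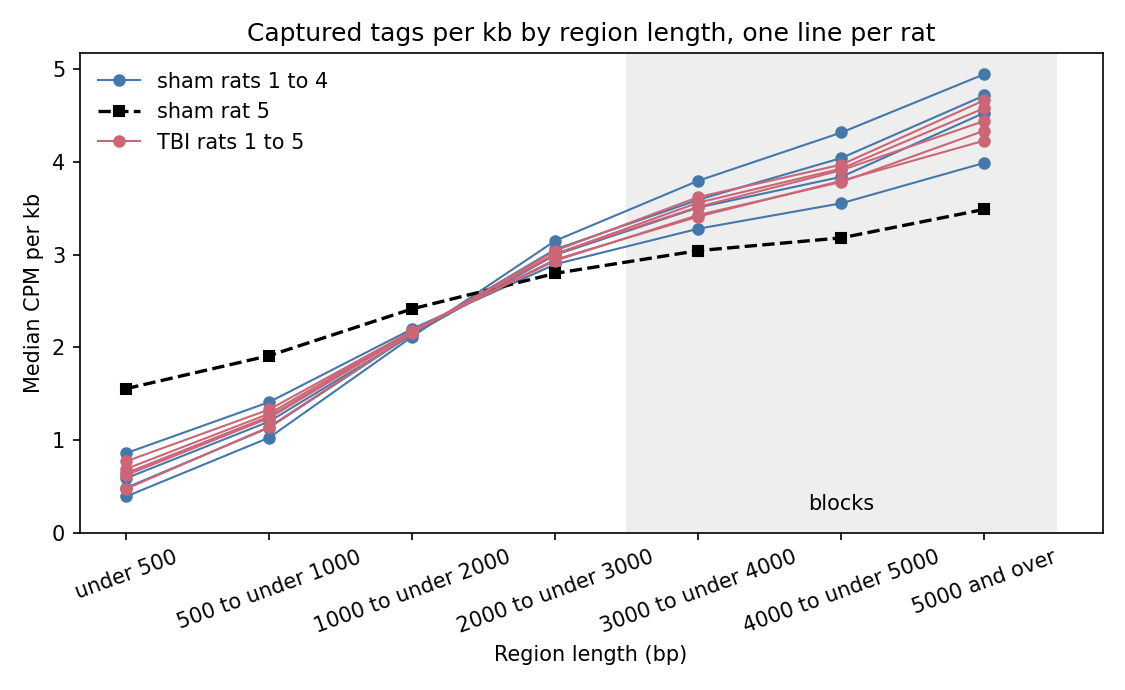
Median CPM per kb (vertical axis) of autosomal regions in 7 length classes (horizontal axis, bp), with 1 line per rat and the classes of blocks shaded. In sham rat 5 (black dashed line) the line was flatter, with the highest median of any rat below 500 bp and the lowest from 2000 bp upward.

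The blocks differed widely among themselves. The quartiles lay at 2.80 and 4.68 CPM per kb, and the whole range ran from 0.123 to 116 CPM per kb. Above 5 times the median there were 25 blocks, and above 10 times the median there were 6. Conversely, 70 blocks (1.97%) fell below the autosomal median in spite of their length. Across blocks, length and CPM per kb were weakly related (Pearson's r = 0.19, Spearman's rho = 0.21, 3552 blocks that share the same 10 libraries).

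The strongest signal per kb came from chr16:27696596-27702577, a block of 5981 bp with 116 CPM per kb. Its CPM was 899, 657, 747, 720 and 440 in sham rats 1 to 5 and 615, 828, 679, 785 and 589 in TBI rats 1 to 5. All TBI values lay within the sham range, whose lower end was set by sham rat 5. Without that rat TBI rats 1 and 5 lay below all sham values, and the log2 fold change was -0.11 ± 0.14 (SE). Next came chr20:25103138-25109817, of 6679 bp, with 94.9 CPM per kb. There, CPM was 879, 544, 697, 833 and 232 in the sham rats and 678, 788, 645, 602 and 437 in the TBI rats. Sham rat 5 had the lowest value in both of these blocks. The third and the fifth, chr16:27606562-27612988 with 73.1 CPM per kb and chr16:27573207-27576884 with 44.7 CPM per kb, lay in the same window of 1 Mb as the first. The fourth, chr17:17520688-17524160, held 56.1 CPM per kb. In these 3 blocks the highest rat exceeded the lowest by 1.35, 1.52 and 1.51 times.

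At the other end, 3 blocks were nearly empty outside 1 library. The block chr9:849322-852741 held 71 tags in all, of which 59 came from sham rat 5. The other rats had between 0 and 5 tags there, and it fell under the minimum for the test. The block chr9:821118-825260 held 3, 9, 0, 2 and 149 tags in sham rats 1 to 5 and 1, 3, 6, 6 and 7 tags in the TBI rats. The block chr17:53614028-53617060 held 0, 12, 6, 2 and 114 tags in the sham rats and 5, 1, 2, 7 and 8 tags in the TBI rats. Thus, the fewest tags per kb occurred in blocks whose tags came mostly from sham rat 5.

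The longest blocks were not the densest. The longest, chr17:49602151-49620107 with 17956 bp, held 6.40 CPM per kb. Its CPM was 137, 126, 124, 118 and 81.5 in sham rats 1 to 5 and 134, 125, 109, 106 and 86.3 in TBI rats 1 to 5. Both groups spanned nearly the same range, but only because sham rat 5 had the lowest value of all. Sham rats 1 to 4 lay between 118 and 137 CPM, above TBI rats 3 to 5. Without sham rat 5 the log2 fold change was -0.17 ± 0.13 (SE). The second, chr16:27547794-27563136 with 15342 bp, held 17.5 CPM per kb. Here, sham rat 5 reached 519 CPM, whereas the other 9 rats lay between 176 and 308 CPM. The third and the fifth, chr7:114203718-114218435 and chr3:59409166-59421597, held 11.8 and 9.30 CPM per kb. The fourth, chr2:1323391-1337857 with 14466 bp, held only 0.590 CPM per kb, and 763 of its 1472 tags came from sham rat 5.

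The blocks were spread unevenly over the chromosomes. On average there were 5.01 blocks per 1000 regions. Chromosome 20 had 255 blocks, or 14.7 per 1000 regions, and chromosome 12 had 245 blocks, or 13.8 per 1000. These 2 chromosomes held 14.1% of the blocks but 4.95% of the regions. Chromosome 16 followed with 8.50 and chromosome 19 with 6.96 blocks per 1000 regions. The lowest values occurred on chromosome 2, with 2.61, and chromosome 11, with 3.21 blocks per 1000 regions. Per Mb of chromosome spanned by regions, the number ranged from 0.604 on chromosome 2 to 5.24 on chromosome 12. Median tags per kb of the blocks varied less, from 3.28 CPM per kb on chromosome 2 to 4.05 CPM per kb on chromosome 16.

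**Figure D2:**
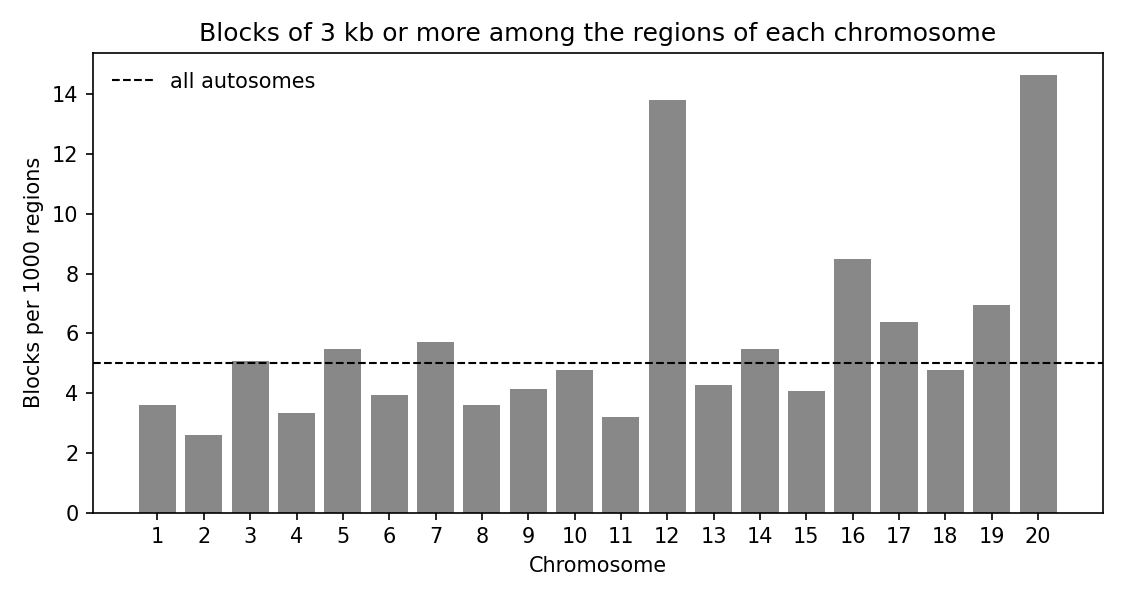
Number of blocks per 1000 deposited regions (vertical axis) on each of the 20 autosomes (horizontal axis). The dashed line marks the value over all autosomes, 5.01. Chromosomes 12 and 20 stood well above the line, and chromosome 2 had the lowest bar.

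Blocks lay close to their nearest neighbours. The nearest other region was a median of 305 bp away, against 537 bp for all autosomal regions, and 83.4% of the blocks had a neighbour within 1 kb, against 68.7%. Over a wider distance the difference was small, with a median of 43 other regions within 50 kb, against 39 for all autosomal regions. Blocks were also more frequent toward the chromosome ends. Within 5 Mb of the first or last region of a chromosome lay 13.7% of the blocks and 7.37% of all autosomal regions. The median distance from 1 block to the next nearest was 41.7 kb. There were 883 blocks (24.9%) within 10 kb of another block and 2370 (66.7%) within 100 kb, whereas 159 lay over 1 Mb from any other. In windows of 1 Mb, 1004 windows held a block, 363 held exactly 1 and 71 held 10 or more. Those 71 windows contained 995 blocks. Genes at these positions were not analysed here.

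The window with most blocks was chromosome 16 from 27 to 28 Mb, with 60 blocks among 218 regions. These blocks covered 33.6% of the window and took 8.22% of all tags found in blocks. They included 17 of the 25 densest blocks and the second longest block. Their tags per kb ran from 1.02 to 116 CPM per kb, with a median of 9.28 CPM per kb. The summed CPM of the 60 blocks was 5541, 5310, 4996, 4206 and 5885 in sham rats 1 to 5 and 4327, 5328, 4553, 5354 and 4296 in TBI rats 1 to 5. All TBI sums lay within the sham range. Nevertheless, single blocks of this window varied more between rats than blocks elsewhere, with a median SD of 0.37 log2 units. Without sham rat 5 this SD was 0.25 log2 units. Sham rat 5 had the highest level of all rats in 39 of the 60 blocks and the lowest in 12.

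The next windows were chromosome 15 from 103 to 104 Mb, with 22 blocks, and chromosome 3 from 163 to 164 Mb, with 21 blocks. Their median tags per kb, 3.87 and 3.75 CPM per kb, were close to that of all blocks. In both windows sham rat 5 had the lowest sum. On chromosome 15 it had 337 CPM against 412 to 489 CPM in the other rats, and on chromosome 3 it had 279 CPM against 305 to 394 CPM.

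Rat by rat, the blocks took 6.42%, 5.66%, 6.21%, 6.60% and 4.52% of all tags in sham rats 1 to 5 and 5.91%, 6.40%, 6.17%, 6.23% and 5.86% in TBI rats 1 to 5. Sham rat 5 was the lowest of all rats and sham rat 4 the highest, and the TBI values fell between them. The 95% Wilson interval of each share was narrow, for example 4.51% to 4.53% in sham rat 5, but it covers counting error only. The mean share was 5.88% ± 0.839 in sham rats (SD, n = 5) and 6.12% ± 0.229 in TBI rats (SD, n = 5). The difference, TBI minus sham, was 0.234 percentage points, and the groups overlapped. Without sham rat 5 the sham mean was 6.22% ± 0.404 (SD, n = 4) and the difference was -0.107 percentage points. Hence, the sign of the difference depended on 1 library, and in both cases it was smaller than the spread of the sham rats.

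The share of tags in blocks moved with the share of regions that lacked tags. Sham rat 5 had the lowest value of both measures, and the next lowest share in blocks was that of sham rat 2, with 7.56% of all regions lacking tags. TBI rat 5 followed, with 6.57%. The rats with the 3 highest shares in blocks, sham rats 4 and 1 and TBI rat 2, were also those with the most regions lacking tags, up to 16.3%. The ratio of median tags per kb in blocks to that in shorter regions was 3.71, 2.57, 3.38, 4.45 and 1.65 in sham rats 1 to 5 and 3.00, 3.72, 3.30, 3.20 and 2.89 in TBI rats 1 to 5. The part of capture in these differences was not tested.

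**Figure D3:**
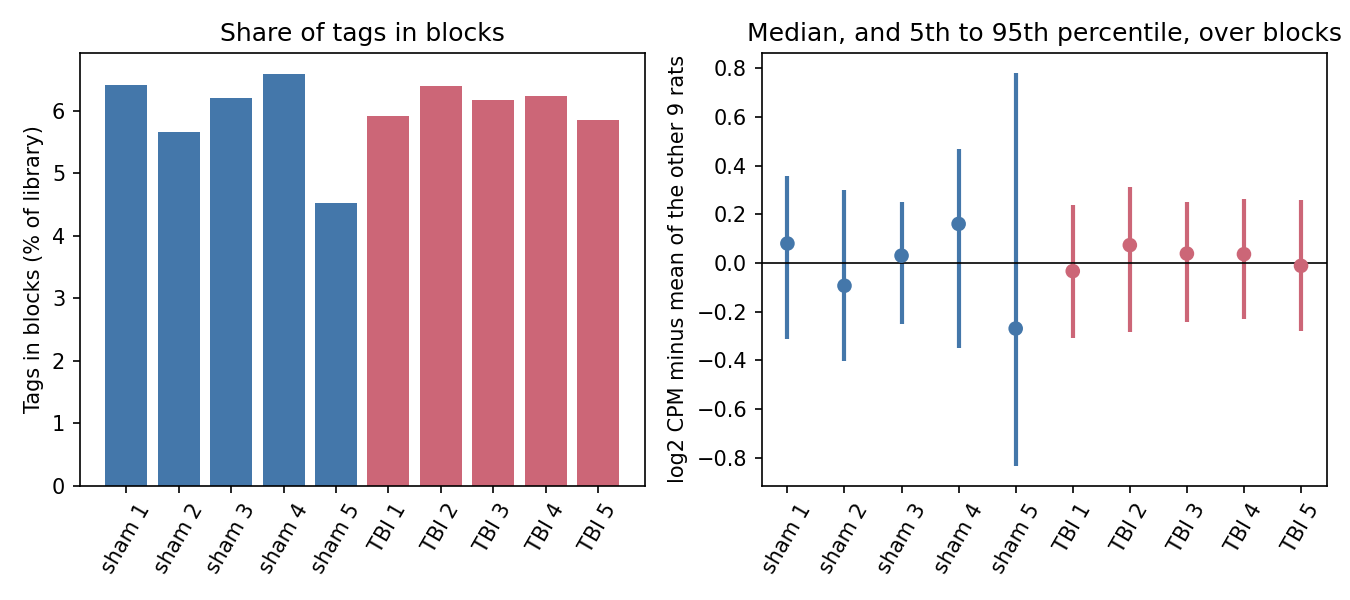
Left, percentage of each library's tags found in blocks. Right, for each rat, log2 CPM in a block minus the mean log2 CPM of the other 9 rats, with the median over 3551 blocks (point) and the 5th to 95th percentile (line). Sham rats are blue and TBI rats red. Sham rat 5 had the lowest share (4.52%), the lowest median (-0.27) and the longest line.

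Blocks varied less between rats than other regions. The SD of log2 CPM within groups, pooled over both groups, had a median of 0.20 over blocks and 0.38 over all 358249 regions tested. Without sham rat 5 the medians were 0.16 and 0.33. This SD declined with length, from 0.44 in tested regions under 500 bp to 0.40, 0.31 and 0.23 in the following classes below 3000 bp. Within the blocks it was 0.200 below 4000 bp, 0.195 at 4000 to under 5000 bp and 0.214 at 5000 bp or more. More tags give a smaller counting error, so the dispersion of each region was also set against the trend at its abundance. The ratio was 0.753 in the median block and 0.869 in the median tested region, and without sham rat 5 it was 0.865 and 0.950. With all rats it did not fall steadily with length. It was 0.799 in tested regions under 500 bp, and 0.875, 0.914 and 0.812 in the following classes below 3000 bp. In blocks of 5000 bp or more it was 0.806.

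The steadiest blocks were chr3:160148142-160153574, chr13:105572441-105576305 and chr13:98314342-98319547. In the first, CPM was 18.0, 19.1, 20.2, 19.1 and 19.9 in the sham rats and 17.9, 18.8, 17.7, 18.0 and 17.7 in the TBI rats. Its highest rat exceeded its lowest by 1.14 times. In the other 2 blocks this ratio was 1.15 and 1.21. The most variable blocks were the 2 sparse blocks of chromosomes 9 and 17 described above and their neighbour chr17:53596836-53601208, where tags numbered 6, 45, 26, 9 and 202 in the sham rats and 11, 10, 10, 17 and 38 in the TBI rats. Their SDs were 1.78, 1.72 and 1.41 log2 units, and the highest value in each was that of sham rat 5.

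Sham rat 5 departed from the other rats in 2 directions. Its median log2 difference from the mean of the others was -0.27 over the blocks. It had the lowest level of all rats in 1846 blocks (52.0%) and the highest in 533 (15.0%). Over all regions tested its median was 0.0081, and it was lowest in 24.0% and highest in 24.9%. Over the blocks the medians of the remaining rats lay between -0.09 and 0.16. In contrast, the level of sham rat 5 was over 2 times that of every other rat in 69 blocks (1.94%), which happened in 0 blocks for each of the other rats. This count was not made over all regions, so it cannot be called particular to blocks. In regions under 500 bp the median of sham rat 5 was 1.55 CPM per kb, against 0.391 to 0.858 in the other rats. Of these 69 blocks, 12 were on chromosome 16, 10 on chromosome 2, 7 on chromosome 9 and 6 on chromosome 14. They were sparse in the other rats, with a median of 0.820 CPM per kb against 3.71 CPM per kb over all blocks in the same 9 rats, and 43.5% of them lay within 5 Mb of a chromosome end. In sham rat 5 their median was 3.25 CPM per kb. In 9 blocks sham rat 5 contributed over 50% of all tags.

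The comparison of TBI with sham rats asked whether blocks change their methylation after injury. With all 10 rats, 16 of 3551 blocks (0.451%) had an unadjusted p under 0.01 in edgeR's quasi-likelihood test, against a background of 0.265% of all regions tested. Only 2 blocks were higher in TBI rats (background 0.101%), and 14 were lower (background 0.165%). After Benjamini-Hochberg adjustment over all tested regions, 0 blocks remained under 0.05 (smallest adjusted p = 1.00), and the DESeq2 Wald test also gave 0 adjusted calls. At an unadjusted p under 0.05 there were 61 blocks (1.72%), which was below the background of 2.43%. The groups did not overlap in 20 blocks (0.563%), against a background of 0.504%. The median log2 fold change, TBI over sham, was 0.02 over blocks and -0.02 over all regions tested. Thus, no block was shown to differ between groups beyond what testing this many regions allows.

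Without sham rat 5 the picture turned. Of 3549 blocks, 17 (0.479%) had an unadjusted p under 0.01, against a background of 0.793%. Of these, 13 were higher (background 0.395%) and 4 lower (background 0.398%). Again, 0 blocks passed an adjusted p of 0.05 in edgeR's quasi-likelihood test (smallest adjusted p = 0.549), whereas 14 shorter regions passed. At an unadjusted p under 0.05 there were 72 blocks (2.03%), against a background of 4.6%. Groups did not overlap in 48 blocks (1.35%), against 1.55% of all regions. The median log2 fold change was -0.03 over blocks and -0.0031 over all regions, and over blocks it was also below 0 when sham rat 2 (-0.0079) or TBI rat 2 (-0.00081) was left out instead. Under scaling by total tags alone the medians with all rats were 0.07 over blocks and 0.04 over all regions, and with loess offsets they were -0.03 and -0.02. The fit with all rats and the fit without sham rat 5 had 4 called blocks in common, 1 higher and 3 lower, each in the same direction in both. With all rats 20 of 3551 blocks had a log2 fold change beyond 1 in either direction, as did 1908 of all 358249 regions tested. Without sham rat 5 the numbers were 0 of 3549 blocks and 861 of all 358615 regions tested.

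**Figure D4:**
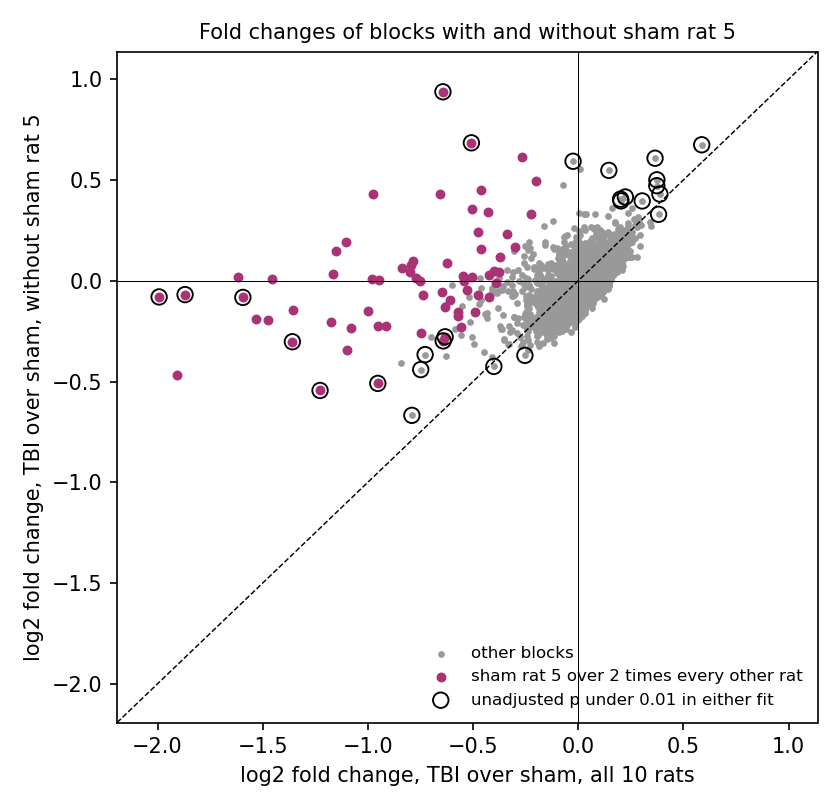
Log2 fold change of each of 3549 blocks, TBI over sham, with all 10 rats (horizontal axis) and without sham rat 5 (vertical axis). The dashed line marks equal values. Blocks in which sham rat 5 exceeded every other rat more than 2 times (purple) lay left of 0 on the horizontal axis and were scattered around 0 on the vertical axis. Black circles mark an unadjusted p under 0.01 in either fit.

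The block with the most support for a higher level after TBI was chr1:84588898-84591946, of 3048 bp. CPM was 4.25, 5.58, 3.93, 4.71 and 6.04 in sham rats 1 to 5 and 9.02, 6.65, 7.37, 7.35 and 6.45 in TBI rats 1 to 5. Every TBI rat was above every sham rat. The log2 fold change was 0.59 ± 0.16 (SE) with all rats and 0.67 ± 0.15 in the absence of sham rat 5, and the block was called in both fits. In edgeR's quasi-likelihood test its adjusted p = 1.00 with all rats and adjusted p = 0.549 without that rat. All other blocks had adjusted p-values of 1.00 and of at least 0.996 in these fits.

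The second, chr5:168649134-168652700, had CPM of 9.90, 10.5, 10.4, 11.3 and 8.70 in the sham rats and 13.1, 14.1, 13.7, 13.9 and 11.5 in the TBI rats. These groups did not overlap either. The log2 fold change was 0.38 ± 0.13 (SE), and the block was no longer called once sham rat 5 was left out (0.33 ± 0.12). Its unadjusted p in edgeR's quasi-likelihood test moved only from 0.0095 to 0.0103, and the groups still did not overlap without that rat. The next 3 in order were not called with all rats. The first of them, chr10:103258071-103261257, had a log2 fold change of 0.39 ± 0.14, and 0.43 ± 0.13 without sham rat 5, where it was called. It was followed by chr11:85427539-85430862, with 0.37 ± 0.15, and 0.47 ± 0.13 in the smaller set, where it was also called. The last, chr1:88303179-88306335, had 0.34 ± 0.14 and 0.29 ± 0.13 and was called in neither fit.

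In some blocks the groups were apart only after sham rat 5 was left out, as in the chromosome 11 block above. Another was the block with the second smallest p in that fit among those higher in TBI rats. In chr10:55307758-55310935 CPM was 3.23, 4.47, 3.83, 4.12 and 7.56 in the sham rats and 6.48, 5.42, 5.25, 5.86 and 6.91 in the TBI rats. The value of sham rat 5 was above all TBI values, and the other 4 sham values were below them. Accordingly, the log2 fold change was 0.37 ± 0.19 (SE) with all rats, not called, and 0.61 ± 0.15 without it, called.

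Among the blocks lower after TBI, chr20:3454567-3457575 had the smallest p. CPM was 4.40, 2.96, 4.78, 4.76 and 6.23 in the sham rats and 2.11, 3.62, 2.22, 2.47 and 3.01 in the TBI rats. The groups overlapped, since sham rat 2 lay below TBI rats 2 and 5. The log2 fold change was -0.79 ± 0.20 (SE) with all rats and -0.67 ± 0.18 when sham rat 5 was left out, and both fits called the block. A second block close by, chr20:3414872-3419123, had CPM of 6.09, 8.40, 7.10, 5.69 and 18.9 in the sham rats and 3.38, 4.84, 3.84, 3.70 and 7.84 in the TBI rats. Its log2 fold change was -0.95 ± 0.29, and -0.51 ± 0.18 without sham rat 5, and it too was called both times. The window from 3 to 4 Mb of chromosome 20 held 14 blocks, of which 3 were called lower with all rats and 2 without sham rat 5. Over the 14 blocks the median log2 fold change moved from -0.23 to -0.02 when sham rat 5 was left out.

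The block chr16:49010549-49013825 was lower after TBI with no overlap between groups. CPM was 9.75, 9.50, 11.4, 12.2 and 9.91 in the sham rats and 7.89, 7.81, 9.41, 7.55 and 7.33 in the TBI rats. Its log2 fold change was -0.40 ± 0.14 (SE), and -0.43 ± 0.13 without sham rat 5, so that the difference was as large without that library. In chr7:137120296-137123320 the call appeared only without sham rat 5, with log2 fold changes of -0.25 ± 0.17 with all rats and -0.37 ± 0.13 in that fit.

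**Figure D5:**
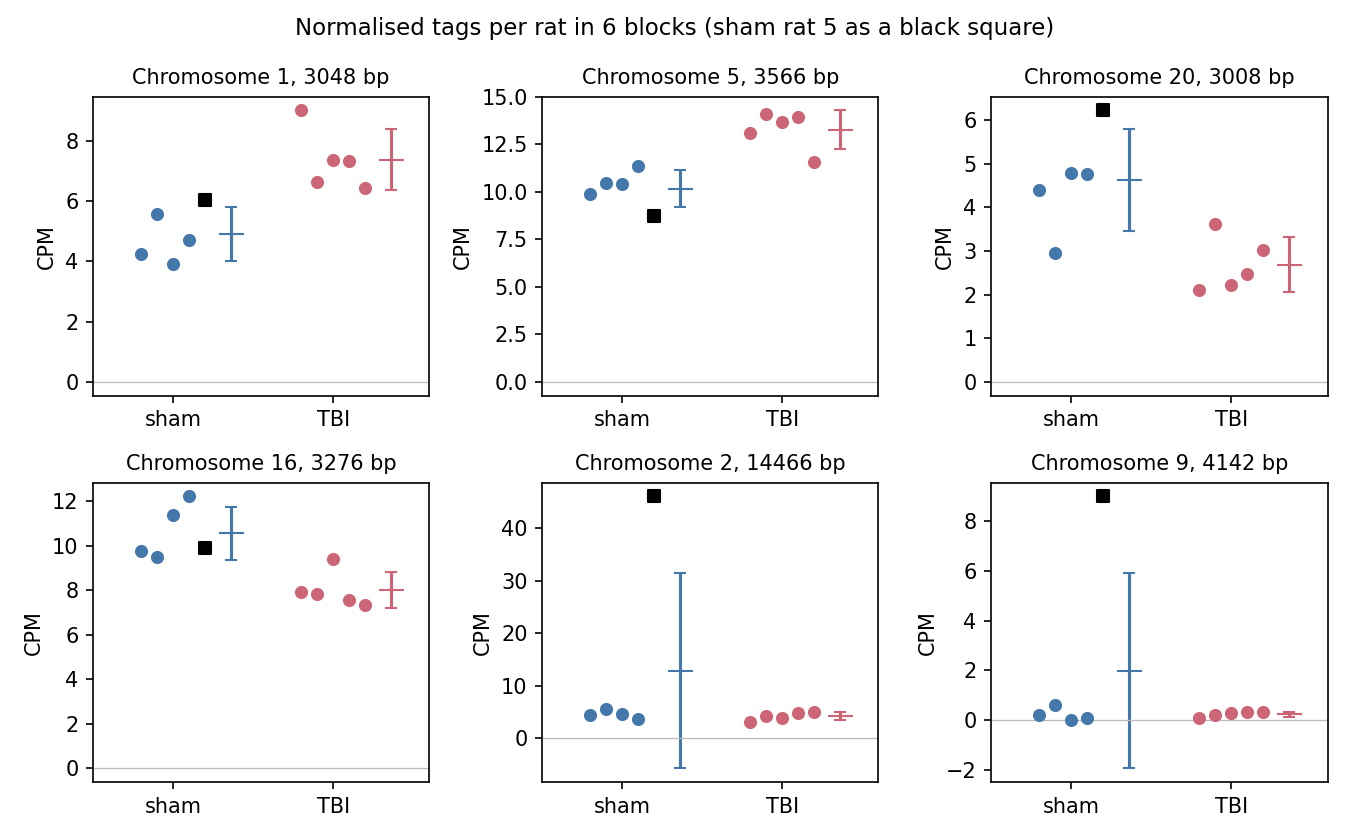
CPM per rat (vertical axis) in 6 blocks, each panel with its own scale, for 5 sham rats (blue, with sham rat 5 as a black square) and 5 TBI rats (red). Bars to the right of the points are the mean ± SD, n = 5. In the panels of chromosomes 1, 5 and 16 the groups did not overlap, whereas in those of chromosomes 2 and 9 the sham mean was raised by sham rat 5.

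Most of the blocks called lower had their highest level in sham rat 5. This was so in 13 of the 14 blocks, and in 10 of them its level was over 2 times that of every other rat. Without it 3 of the 14 were called and 2 had too few tags to be tested. In chr9:821118-825260 CPM was 9.01 in sham rat 5 and between 0.00 and 0.62 in the other 9 rats, and the log2 fold change was -2.98 ± 1.01 (SE). In chr7:1002229-1005734 CPM was 5.50 in sham rat 5, 1.08 to 1.91 in the other sham rats and 0.775 to 1.18 in the TBI rats. Here, the log2 fold change was -1.23 ± 0.39 with all rats, and it was -0.54 ± 0.28 and not called after sham rat 5 was left out.

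The lower calls gathered on chromosome 2, where 5 of the 13 blocks between 1 and 2 Mb were called within 191 kb. This window, like that of chromosome 20, was chosen for mention because it held several called blocks. Mean tags per kb over these 13 blocks were 1.36, 1.48, 1.36, 1.36 and 3.12 CPM per kb in sham rats 1 to 5 and 1.32, 1.21, 1.32, 1.19 and 1.39 CPM per kb in TBI rats 1 to 5. The value of sham rat 5 was more than 2 times that of any other rat. The median log2 fold change was -0.73 in the full set and -0.08 in the absence of sham rat 5, and 0 of the 13 blocks were called without it. The block with the smallest p among them, chr2:1315682-1320756, had CPM of 3.67, 5.09, 4.07, 3.73 and 10.0 in the sham rats and 3.81, 2.91, 3.75, 3.03 and 2.55 in the TBI rats. Its log2 fold change was -0.73 ± 0.24 (SE), and -0.37 ± 0.17 without sham rat 5.

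The opposite occurred on chromosome 14, where 3 blocks between 4 and 5 Mb were called higher in TBI rats only without sham rat 5. These blocks were chosen for mention after their values were seen. The log2 fold change with all rats and after leaving out that rat was -0.02 and 0.59 in chr14:4315198-4318682. In the other 2 blocks it reversed, from -0.64 to 0.94 in chr14:4537229-4540519 and from -0.51 to 0.68 in chr14:4667889-4671283.

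Calls were also counted by length, with too few calls to compare the classes. Of the 371 blocks of 5000 bp or more, 5 (1.35%, against the background of 0.265%) were called with all rats, all of them lower in TBI rats. These 5 were the neighbouring called blocks of chromosome 2 described above, so they are not a separate result about length. Without sham rat 5 there were 0 (against 0.793%). In these blocks the median log2 fold change was 0.02 in the full set and -0.04 in the absence of sham rat 5. For blocks of 3000 to under 4000 bp the numbers of calls were 8 of 2532 (0.316%) and 15 of 2531 (0.593%).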

How the data were processed

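As the labels and methods state, DNA fragments of 200 to 300 bp were captured (MethylMiner), sequenced as 36 bp single reads, aligned to RN4 with BWA and compared between all pairs of samples with MACS. The authors merged the regions with BEDTools, removed duplicate reads and deposited the raw count of tags in each region for each rat, unscaled. Positions are printed as deposited; whether they start at 0 or 1 is not given in the sources used here. All 10 sample columns were used (0 others). The methods count 4 sham rats in this capture, but 5 libraries carry that label. Nothing was annotated, since no RN4 annotation was used here.

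Regions with at least 117 tags in all (50th percentile) were tested on the whole table with edgeR 4.0.16 in R 4.3.3 (TMM, trended dispersion, glmQLFit, glmQLFTest, no covariates), and again without sham rat 5. Called regions had an unadjusted p under 0.01. P-values were adjusted over all tested regions (Benjamini-Hochberg), and SEs were derived from the F statistic. Log2 CPM used a prior count of 2. In simulated counts of 40000 regions with all 10 rats, 47% of regions changed by 1 log2 unit were recovered at an adjusted p under 0.05. Of those changed by 2 log2 units 95% were recovered, and 0.930% of unchanged regions had a p under 0.01. The simulated counts followed the dispersion trend and held no library that stood apart like sham rat 5. In the real data only 0.265% of all tested regions had a p under 0.01, so the simulated recovery need not hold there.

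The blocks, lists and tests were chosen with earlier results of these data known. Blocks named in the text were the 5 longest, the 5 with most and 3 with fewest CPM per kb, in each direction the 5 of smallest p (3 without sham rat 5), the 3 with the largest and 3 with the smallest SD, and the 3 windows of 1 Mb with most blocks. Alternatives were other scalings (DESeq2 1.42.0 size factors, total tags, loess offsets with span 0.3), filters, tests, thresholds and length limits, and leaving out each rat.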

Additional observations from a re-analysis of the deposited data

Results flagged for a closer look

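Of 68 sets of 5 rats examined for 1 rat far from the rest, 11 held such a rat, where chance would give about 3.4, and 9 of the 11 were sham rat 5. The blocks were named partly for large differences, so these sets are not a random sample.

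Sham rat 5 was far above the other sham rats in 9 blocks. It had 46.12 CPM in chr2:1323391-1337857, against 3.63 to 5.65 in the other 4. It had 10.03 CPM in chr2:1315682-1320756, against 3.67 to 5.09. On chromosome 9 it had 3.566 CPM in chr9:849322-852741, against 0.00 to 0.10, and 9.006 CPM in chr9:821118-825260, against 0.00 to 0.62. On chromosome 17 it had 6.891 CPM in chr17:53614028-53617060, against 0.00 to 0.83, and 12.21 CPM in chr17:53596836-53601208, against 0.44 to 3.10. It had 18.86 CPM in chr20:3414872-3419123, against 5.69 to 8.40, and 5.501 CPM in chr7:1002229-1005734, against 1.08 to 1.91. In chr10:55307758-55310935 it had 7.556 CPM, against 3.23 to 4.47.

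Among TBI rats, TBI rat 3 had 9.407 CPM in chr16:49010549-49013825, against 7.33 to 7.89 in the other 4. TBI rat 2 had 18.79 CPM in chr3:160148142-160153574, a block chosen for its small SD, against 17.7 to 18.0.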

How the results depend on the processing

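No paired analysis was possible because the rats of the 2 groups carry different numbers. Of 16 blocks called with all rats (2 higher and 14 lower in TBI), leaving out 1 rat gave 3 to 50 calls, with 1 to 13 higher and 2 to 47 lower. Without sham rats 1, 3 and 4 there were 33, 24 and 50 calls, and without TBI rats 1 to 5 there were 3, 3, 5, 3 and 9. The share of all tested regions called moved too, from 0.265% to 0.436%, 0.307% and 0.726% without those sham rats, and to between 0.175% and 0.264% without a TBI rat. Without sham rat 5 the calls turned from mostly lower to 13 higher and 4 lower. With sham rat 5 left out, total tags alone gave 17 higher and 4 lower, and loess offsets gave 38 calls (35 higher, 3 lower). Of all tested regions these fits called 0.798% and 0.862%. The exact test gave 29 calls (26 lower), the likelihood ratio test 30 (27 lower) and the DESeq2 Wald test 5 higher and 9 lower. Their shares over all tested regions were 0.370%, 0.421% and 0.249%. Loess offsets gave 21 lower among 24 calls, and called 0.3565% of all tested regions. DESeq2 size factors and the filter of 1 tag each gave 1 higher, and called 0.2669% and 0.5345% of all tested regions. An unadjusted p under 0.05 gave 61 calls (9 higher, 52 lower), and it called 2.43% of all tested regions. One under 0.001 gave 1 call (0 higher, 1 lower), and 37 among all 358249 regions tested. Length limits of 2000, 4000 and 5000 bp gave 43 (6 higher, 37 lower), 8 (0 higher, 8 lower) and 5 calls (0 higher, 5 lower). Those limits held 17105, 1019 and 371 regions. The fit was the main one, which called 0.265% of all tested regions. In all these fits 0 blocks had an adjusted p under 0.05.

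The median log2 fold change of blocks was 0.017, with a range of -0.027 to 0.067 when 1 rat was left out, 0.066 with total tags alone, -0.030 with loess offsets and 0.053 with the filter of 1 tag. The share of tags in blocks was 16.6%, 2.74% and 1.46%, the level 3.13, 3.99 and 4.37 CPM per kb, and the part of blocks on chromosomes 12 and 20 was 11.1%, 16.6% and 18.6% at limits of 2000, 4000 and 5000 bp. The median SD over blocks was 0.224 with total tags alone, 0.177 with loess offsets and 0.225 at a limit of 2000 bp, and 0.159 to 0.216 when 1 rat was left out, lowest without sham rat 5. The cause of these shifts was not tested, except that other length limits change the regions counted. Among the blocks named for the smallest p, which do not include the 3 of chromosome 14 that turned from lower to higher without sham rat 5, 0 of 168 values changed direction under another scaling or without 1 rat, while 35 lost and 8 gained the call. Those blocks were chosen by p in these same counts, so their constant direction is not independent support for a difference.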
